A study of Saccharomyces cerevisiae with 4 samples.

Results

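Single-sided promoter probes are the microarray probes that lie upstream of 1 gene only. In these files such a probe carries the annotation type PROMOTER, while a probe between 2 genes transcribed away from each other is called a divergent promoter probe. They were taken where they lay on the nuclear chromosomes at least 20 kb from the first and the last probe of the chromosome, which left 5198 of the 5655 promoter probes and of 41480 nuclear probes in all. The 5198 probes stand in front of 2351 genes. Of these genes, 1055 have 1 such probe, 1296 have at least 2, and FLO1, a cell wall flocculin gene, has the most with 32. The files place a probe a median of 295 bp from the start of its gene, with a range of 1 to 9547 bp and 728 probes beyond 1000 bp. Since the next open reading frame (ORF) upstream of a single-sided promoter lies on the same strand for 5044 of the 5198 probes, or 97.0%, these are the gaps in which the end of 1 gene faces the start of the next.

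The nuclear pore complex is the channel through the nuclear envelope, and its scaffold proteins also touch chromatin on the nuclear side. In budding yeast the paralogs Nup157p and Nup170p both build its inner ring, and Nup170p is known for a role in the silencing of subtelomeric genes. Yeast promoters are mostly free of nucleosomes just upstream of the gene start, while the transcribed body of a strongly expressed gene can give ChIP signal with many tagged proteins.

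The series has 4 groups of 1 library each. They are Nup157 carrying a 9xMyc tag in a strain labelled wild type, 9xMyc-tagged Nup170 in a strain labelled sir4∆, 9xMyc-tagged Nup170 in a strain labelled yku70∆, and 9xMyc-tagged Nup170 in a strain labelled wild type. All are MATa haploids labelled his3∆1, leu2∆0, ura3∆0 and lys2∆0, with the tag linked to hphR and each deletion to natR. Cultures in YPD at 30 °C reached an optical density of 1 and then received 1% formaldehyde for 1 h, before shearing to about 400 bp and precipitation with an anti-Myc antibody. Each value is log2 of ChIP over whole cell extract DNA, centred on the median of all nuclear probes and averaged over 2 hybridisations, which the labels do not give as separate cultures. With 1 library in a group there is no test between groups, and no library from an untagged strain was analysed here.

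The strain labels did not all match the extract DNA. At SIR4, which encodes a silencing protein, none of 15 probes was near blank (an extract signal at or below the mean of the blank spots plus 2.6 SDs) in the library labelled sir4∆, where the median extract signal was lower by 0.50 log2 units than in the other libraries (-0.50). At YKU70, which encodes a subunit of the Ku complex of chromosome ends, none of 7 probes was near blank in the library labelled yku70∆, and the extract signal differed from that of the others by -0.052. All 16 probes of LYS2 were near blank in the Nup157 library and none of 16 was in any of the 3 Nup170 libraries, although all the labels give lys2∆0. The names sir4∆ and yku70∆ therefore stand below for the libraries so labelled. With 1 Nup157 library, protein, strain and array cannot be told apart in its differences from the Nup170 libraries.

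Usable promoter probes numbered 5187 for Nup157, 5184 for sir4∆, 5186 for yku70∆ and 5185 for Nup170 in wild type. Pearson's r between the 2 hybridisations across these probes, which are not independent, was 0.531 for Nup157, 0.662 for sir4∆, 0.755 for yku70∆ and 0.749 for Nup170 in wild type. The spread differed more: the lower-side SD over all nuclear probes was 0.505 in the Nup157 library against 0.193, 0.184 and 0.223 in the sir4∆, yku70∆ and Nup170 wild-type libraries. A fixed fold is thus a smaller multiple of the spread in the Nup157 library. Depth does not apply to arrays, and their number limits the precision.

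Promoter probes lay slightly below the rest of the genome in every library. Their median log2 ratio was -0.104 for Nup157, -0.045 for sir4∆, -0.077 for yku70∆ and -0.094 for Nup170 in wild type, with 95% order-statistic intervals over probes of -0.121 to -0.084, -0.052 to -0.036, -0.084 to -0.069 and -0.103 to -0.085. These intervals cover the spread between probes only, and neighbouring probes share fragments. ORF probes of the same chromosome regions had medians of 0.011, 0.006, 0.014 and 0.018 in the same order. The promoter median was below 0 on 15 of 16 chromosomes for Nup157 and sir4∆, and on 16 of 16 for yku70∆ and Nup170 in wild type. Beside the other kinds of gap, the order differed between the Nup157 and the Nup170 libraries. Divergent promoter probes had a median of -0.040 for Nup157, above that of single-sided ones, and -0.139 for Nup170 in wild type, below it. Probes annotated as downstream had a median of -0.175 for Nup157 and 0.105 for Nup170 in wild type. The promoter median of Nup157 turned to 0.032 when a trend of the ratio on probe brightness was removed, and its sign is therefore not settled, while those of the 3 Nup170 libraries kept theirs under that setting. On both sides of the 20 kb limit, promoter probes 20 to 25 kb from an end had medians of -0.200, -0.093, -0.089 and -0.110 in the 4 libraries, and 117 probes 15 to 20 kb from an end, which the rule leaves out, had -0.370, -0.085, -0.086 and -0.144.

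Values past a fixed fold were found on both sides. A ratio at least 1.5-fold above the genome median, with both hybridisations above it, was found at 464 promoter probes for Nup157, 192 for sir4∆, 215 for yku70∆ and 280 for Nup170 in wild type. These are 8.95%, 3.70%, 4.15% and 5.40% of the promoter probes, beside 12.1%, 1.95%, 2.55% and 3.25% of all nuclear probes. On the low side the shares were 17.9%, 1.08%, 1.35% and 3.34% of promoter probes, beside 12.7%, 0.319%, 0.379% and 1.00% of all nuclear probes. Promoter probes of the Nup170 libraries thus held more values past the fold than the genome on both sides, and those of Nup157 held fewer on the high side and more on the low side. Neither side was particular to them. In sir4∆, yku70∆ and Nup170 in wild type, 9.72%, 9.00% and 12.5% of downstream probes were higher and 0.286%, 0.714% and 0.858% lower. Of divergent promoter probes, 1.73%, 2.75% and 3.98% were higher and 1.02%, 1.37% and 4.12% lower. With Nup157, 10.5% of downstream and 11.2% of divergent promoter probes were higher, and 20.4% and 13.0% lower.

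Ratios followed the distance to the gene start. In the Nup170 wild-type library the median was -0.121 within 100 bp of the start, lowest at -0.172 from 100 to 200 bp, -0.156 from 200 to 300 bp and -0.116 from 300 to 400 bp, and it came to -0.003 from 700 to 800 bp. Within 1000 bp the sir4∆ library had its lowest step, -0.087, at the same place, and so did yku70∆ with -0.144 and Nup157 with -0.210. All 4 libraries therefore dipped in the same 100 bp step, and no 100 bp step of the first 1000 bp inside the ORF had a median as low. On the ORF side of the start the libraries parted. Nup157 had a median of 0.120 from 300 to 400 bp inside the ORF, where Nup170 in wild type had 0.010. The values of single steps were not recomputed with the brightness trend removed, a setting that moved other Nup157 results.

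**Figure D1:**
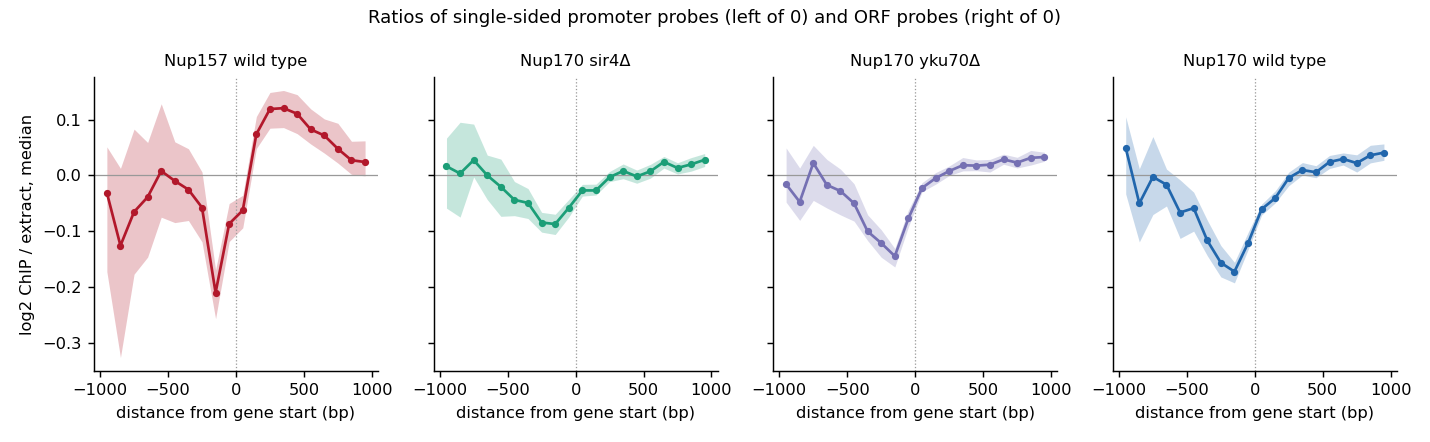
Median log2 of ChIP over extract signal in steps of 100 bp, for single-sided promoter probes (negative distances) and ORF probes (positive distances), in each of the 4 libraries; bands are 95% order-statistic intervals over probes. Within 1000 bp all 4 curves are lowest from 100 to 200 bp upstream, at -0.210, -0.087, -0.144 and -0.172, and the Nup157 curve reaches 0.120 inside the ORF.

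Set against probes 500 to 1000 bp upstream, probes 100 to 300 bp upstream had a median lower by 0.104 for Nup157 (-0.104), 0.091 for sir4∆ (-0.091), 0.115 for yku70∆ (-0.115) and 0.141 for Nup170 in wild type (-0.141). The first and the second hybridisation gave -0.106 and -0.103 for Nup157, and -0.168 and -0.128 for Nup170 in wild type. The dip was also present within genes. Among genes with probes in both ranges, the median of the near minus the far value was -0.156 for Nup157 (426 genes, 257 below 0), -0.092 for sir4∆ (426 genes, 252 below 0), -0.119 for yku70∆ (426 genes, 268 below 0) and -0.119 for Nup170 in wild type (425 genes, 261 below 0). Removing the trend on brightness moved the Nup157 contrast to -0.017, and in gaps with no gene listed the sir4∆ contrast was -0.051.

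Far from the gene start the Nup157 library separated from the Nup170 libraries. Beyond 2000 bp, where 267 probes lie in the gaps of few genes, the median was -0.324 for Nup157 and 0.052, -0.018 and 0.005 for sir4∆, yku70∆ and Nup170 in wild type (265 usable probes of 73 genes in each). From 1000 to 2000 bp it was -0.143 for Nup157 and 0.014 for Nup170 in wild type. Of the usable probes beyond 1000 bp in the Nup170 wild-type library, 345 lie in gaps with a tRNA gene listed and 248 in gaps with no gene listed. Nup157 was the lower in both kinds of gap, with medians of -0.273 and -0.175 against 0.065 and -0.028 for Nup170 in wild type. These far values were not recomputed with the brightness trend removed.

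Neighbouring probes of 1 promoter were only loosely alike. Across pairs of neighbouring promoter probes of the same gene, a median of 234 bp apart, Pearson's r was 0.347 for Nup157 (2837 pairs), 0.287 for sir4∆ (2833), 0.375 for yku70∆ (2835) and 0.395 for Nup170 in wild type (2834), as a description of probes that share fragments. The difference between the highest and the lowest probe of a gene had a median of 0.593, 0.335, 0.310 and 0.373 in these libraries. In the Nup170 wild-type library 160 genes had all their promoter probes above 0, 440 had all below, and 691 had probes on both sides. Between libraries, r across promoter probes was 0.342 for Nup157 with Nup170 in wild type, and 0.811 and 0.863 for sir4∆ and yku70∆ with Nup170 in wild type.

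Within genes, the promoter was lower than the ORF it belongs to. The median of promoter minus ORF was -0.127 for Nup157 (702 of 1154 genes below 0), -0.061 for sir4∆ (699 of 1151), -0.106 for yku70∆ (811 of 1154) and -0.143 for Nup170 in wild type (791 of 1152). For Nup157 the sign turned under the removal of the brightness trend, to 0.082. A gene's promoter and ORF values were weakly related across genes, with r of 0.314 for Nup157, 0.094 for sir4∆, 0.156 for yku70∆ and 0.170 for Nup170 in wild type.

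Values of promoter probes also went with the gene behind them, the next ORF upstream. In the Nup170 wild-type library r with the mean of the upstream ORF was 0.556 for 304 probes lying 100 to 200 bp from the nearest probe of that ORF, 0.459 from 200 to 300 bp (742 probes), 0.339 from 300 to 500 bp (1171) and 0.111 from 500 to 1000 bp (1136). With the gene's own ORF, r was 0.409 for 821 probes within 100 bp of the start and 0.142 for 698 from 100 to 200 bp. The Nup157 library had 0.457 with the upstream ORF from 100 to 200 bp and 0.381 with the own ORF within 100 bp. Probes within about a fragment length of an ORF share sheared fragments with it, and the part of this sharing in the correlations was not tested.

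A gene promoter was measured where at least 2 of its promoter probes were usable. Its value is their mean, and it was counted as higher or lower where it lay at least 1.5-fold from the genome median with both hybridisations on that side. Higher promoters numbered 48 of 1290 (3.72%) for Nup157, 14 of 1288 (1.09%) for sir4∆, 21 of 1290 (1.63%) for yku70∆ and 34 of 1289 (2.64%) for Nup170 in wild type. ORFs called the same way made up 7.94%, 1.04%, 1.91% and 2.41% of ORFs. These ORF shares include genes near chromosome ends and means over other numbers of probes, so they are not on the scale of the promoter shares. Among genes with both values, 39 promoters and 85 ORFs of 1154 were higher for Nup157, and 11 and 18 of 1151 for sir4∆. For yku70∆ they were 17 and 32 of 1154, and for Nup170 in wild type 28 and 38 of 1152. Lower promoters numbered 133 (10.3%), 2 (0.155%), 4 (0.310%) and 11 (0.853%), beside 2.77%, 0.0199%, 0% and 0.0798% of ORFs. The balance of the Nup157 counts is not settled: with normexp 147 promoters were higher and 61 lower, and with the brightness trend removed 29 were lower. With 1 hybridisation left out, lower promoters numbered 3 or 8 for sir4∆, 3 or 10 for yku70∆ and 8 or 27 for Nup170 in wild type. With 1 hybridisation left out, the 34 became 17 or 67 and the 48 became 77 or 70. Most higher promoters were above 0 with both proteins. Of the 34 in the Nup170 wild-type library, 32 were above 0 with Nup157, as were 42.9% of all measured promoters, and all 34 were above 0 in both deletion-labelled libraries. Of the 48 with Nup157, 39 were above 0 with Nup170 in wild type, as were 33.7% of all, and 19 passed the fold there. Lower promoters did not all share their direction: 111 of the 133 of Nup157 were below 0 with Nup170 in wild type, as were 66.3% of all, but 7 of the 11 of Nup170 in wild type were above 0 with Nup157.

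The higher promoters were sorted into kinds of gene or neighbour that were picked out after their values were seen, so the counts describe them and support nothing. Of the 34 in the Nup170 wild-type library, 15 belong to cytosolic ribosomal protein genes, 6 have a small nucleolar or small nuclear RNA (snoRNA, snRNA) gene in the gap, 3 have a tRNA gene there, and 9 have an upstream ORF that itself passed the fold. In all, 28 of the 34 met at least 1 of these descriptions and 6 met none. Among all 1289 measured promoters of that library, 219 met at least 1 (17.0%), with 45, 30, 122 and 35 of the kinds in the same order. The share with a tRNA gene was thus much alike, 8.82% of the higher promoters and 9.46% of all. None was met by 20 of the 48 for Nup157, 5 of the 14 for sir4∆ and 7 of the 21 for yku70∆. Of all measured promoters in these libraries, 974 of 1290, 1081 of 1288 and 1076 of 1290 met none.

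MUD1, a gene for a protein of the U1 snRNP of the spliceosome, had the highest promoter with Nup170 in wild type, at 1.37 with Nup157, 2.44 in sir4∆, 1.29 in yku70∆ and 1.86 with Nup170 in wild type. Its probe at 278 bp was near blank in the extract of every library, and the rule for named genes therefore passed it over. RPL7A, which encodes a protein of the large ribosomal subunit, had the highest promoter value of the named genes in the Nup170 wild-type library. Its promoter measured 1.34 with Nup157, 1.29 in sir4∆, 1.57 in yku70∆ and 1.46 with Nup170 in wild type. The value was set by 1 probe, at 271 bp from the start (chromosome 7, 366239 to 366298 in the files' coordinates, of a genome build that no source used here gives), which read 3.94, 3.01, 3.59 and 3.48. Its neighbour at 476 bp read -0.01, 0.53, 0.73 and 0.61. The annotation places the snoRNA gene SNR39B in this gap, and the ORF behind it, MPS2, a spindle pole body gene, was near 0 at -0.16, -0.04, -0.05 and -0.02. The next promoter, that of BUD22, a gene for ribosomal RNA processing, had 0.35 with Nup157, 0.92 in sir4∆, 1.10 in yku70∆ and 1.25 with Nup170 in wild type. Its gap holds a cluster of snoRNA genes, SNR72 to SNR78, and Nup157 alone stayed under the fold there. RPA34, a subunit gene of RNA polymerase I with SNR128 and SNR190 in its gap, had 0.77, 0.87, 1.17 and 1.04 over 4 probes that all lay above 0 in every library. OM14, a gene for a mitochondrial outer membrane protein, has LSR1 in its gap, the gene of the U2 snRNA of the spliceosome. Its 6 probes, 323 to 2120 bp from the start, averaged 1.37, 0.91, 0.94 and 1.07, and the probe at 323 bp was the highest in all 4 libraries at 2.31, 1.56, 1.57 and 1.38.

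The other high promoters lay beside ORFs of high ratio, a tRNA gene, or neither. TAL1, which encodes transaldolase of the pentose phosphate pathway, had 1.10 with Nup157, 0.60 in sir4∆, 0.67 in yku70∆ and 0.91 with Nup170 in wild type. The ORF behind it is ILV5, an enzyme of branched-chain amino acid synthesis, at 1.53, 1.11, 1.34 and 1.43, while TAL1's own ORF was at 0.32, 0.00, 0.08 and 0.04. The TAL1 probe nearer to ILV5, at 590 bp, read 1.44 in the Nup170 wild-type library and the one at 292 bp read 0.38. TRX1, a thioredoxin gene, lies beyond PDC1, the main pyruvate decarboxylase gene, and repeated this layout with 0.75, 0.70, 0.66 and 0.85 at the promoter and 1.61, 1.17, 1.37 and 1.53 in the PDC1 ORF. MCM3, which encodes a subunit of the replicative helicase, has a tRNA gene in its gap and had 1.38, 0.82, 0.86 and 1.02. TEF1, the gene of translation elongation factor EF-1 alpha, had 0.83, 0.54, 0.89 and 1.05 with no gene listed in its gap and an upstream ORF, MRL1, at 0.07 in the Nup170 wild-type library. PRB1, which encodes vacuolar protease B, was high with Nup157 only, at 0.98 against -0.01, -0.08 and 0.17.

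**Figure D2:**
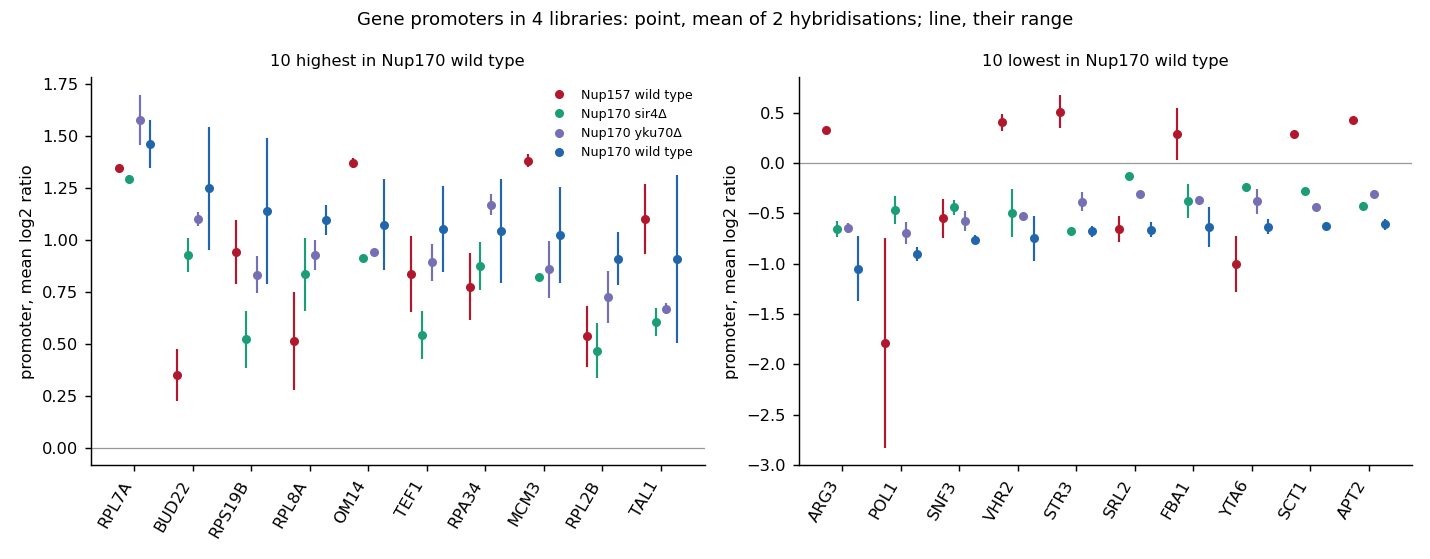
Promoter values, as mean log2 of ChIP over extract signal, of the 10 highest and the 10 lowest named genes of the Nup170 wild-type library, in all 4 libraries; points are means of 2 hybridisations and lines their range. All 10 high promoters are above 0 in every library, while 6 of the 10 low ones are above 0 with Nup157, such as ARG3 at 0.32 against -1.05.

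The lowest promoters differed between the Nup157 and the Nup170 libraries. ARG3, which encodes ornithine carbamoyltransferase of arginine synthesis, was the lowest with Nup170 in wild type at -1.05 and had -0.66 in sir4∆ and -0.64 in yku70∆, but 0.32 with Nup157. STR3, a gene of methionine synthesis, had 0.51 with Nup157, -0.68 in sir4∆, -0.38 in yku70∆ and -0.68 with Nup170 in wild type. FBA1, the fructose-bisphosphate aldolase gene of glycolysis, had 0.29, -0.38, -0.37 and -0.64. These 3 promoters were low in all the Nup170 libraries and not with Nup157. SNF3, which encodes a glucose sensor, was low throughout at -0.55, -0.44, -0.57 and -0.76. POL1, the catalytic subunit gene of DNA polymerase alpha, was the lowest with Nup157 at -1.79 and also low in the others at -0.47, -0.70 and -0.91. Its value rested on the probe at 222 bp, which read -3.19 with Nup157 and -1.43 with Nup170 in wild type and was near blank in the yku70∆ library. Among the lowest with Nup157 were also GCN2, the kinase gene of amino acid starvation, at -1.07 against -0.31 with Nup170 in wild type, and FHL1, which encodes a regulator of ribosomal protein genes, at -1.06 against -0.17.

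Gaps were also sorted by the genes listed in them, after the named promoters were seen. A snoRNA or snRNA gene lay in 31 of the gaps, with 132 usable probes, and about 2081 gaps held no listed gene. A tRNA gene without a snoRNA or snRNA gene lay in 128 gaps, which may also hold other listed genes. In snoRNA or snRNA gaps the probe median was 0.070 with Nup157, 0.215 in sir4∆, 0.263 in yku70∆ and 0.273 with Nup170 in wild type. In tRNA gaps it was -0.168, 0.101, 0.059 and 0.058, and in gaps with no gene -0.103, -0.071, -0.104 and -0.126. All 3 Nup170 libraries thus had the same order of these 3 kinds of gap, and with Nup157 the tRNA gaps were the lowest of the 3 over all distances. That Nup157 order changed with distance. Within 300 bp of the gene start Nup157 had 0.007 in tRNA gaps and -0.130 in gaps with no gene. From 300 to 1000 bp it had -0.141 and -0.034. The few gaps with another noncoding gene, 8 in number, had medians of -0.272, -0.075, -0.071 and -0.073, and were not high in any library. The 91 gaps with another protein-coding gene or pseudogene had -0.068, -0.043, -0.059 and -0.078. The share of probes at least 1.5-fold higher was 32.6% (43 of 132), 13.7% (105 of 765) and 2.81% (110 of 3914) with Nup170 in wild type. For Nup157 these shares were 18.2%, 12.9% and 7.82%.

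**Figure D3:**
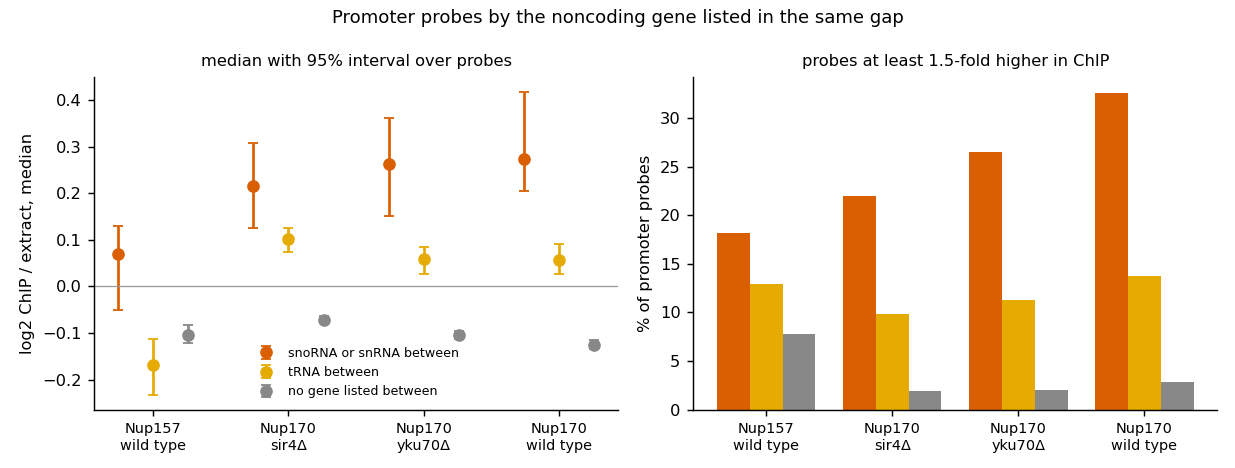
Promoter probes grouped by the noncoding gene listed in the same gap, in 4 libraries: left, median log2 ratio with its 95% order-statistic interval over probes; right, percent of probes at least 1.5-fold higher in ChIP. In the Nup170 libraries the medians of snoRNA or snRNA gaps, 0.215 to 0.273, lie above those of tRNA gaps, 0.058 to 0.101, and of gaps with no gene, below 0.

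The order was the same at matched distances in the Nup170 wild-type library. For probes 300 to 1000 bp from the gene start the medians with Nup170 in wild type were 0.438 in snoRNA or snRNA gaps, 0.099 in tRNA gaps and -0.088 in gaps with no gene, and within 300 bp they were 0.147, -0.004 and -0.157. The same order held where both the own and the upstream ORF were below the fold, with medians of 0.260, 0.046 and -0.145 for Nup170 in wild type. Each subset is drawn from the same probes, whose values were seen before the gaps were sorted, so it describes them and adds no support. The mean over the gap was above 0 in 18 of the 31 snoRNA or snRNA gaps with Nup157, 27 in sir4∆, 27 in yku70∆ and 28 with Nup170 in wild type. Most tRNA gaps were also above 0 in the Nup170 libraries, with 47, 109, 102 and 104 of 128 in the same order. Gaps with no gene had 853 of 2080 with Nup157, and 689, 530 and 479 of 2081 in the Nup170 libraries. RPL33A, a ribosomal protein gene with SNR17B (U3 snoRNA) in its gap, averaged 0.63, 0.48, 0.65 and 0.79. CAF40, a subunit gene of the CCR4-NOT complex with SNR40 in its gap, averaged 0.18, 0.55, 0.67 and 0.72. Whether the noncoding gene itself carries the signal cannot be told from probes this far apart in many gaps.

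In tRNA gaps the values past the fold were mostly those of single probes. Of the tRNA gaps with at least 3 probes, the highest probe passed 1.5-fold in 64 of 113 with Nup157, 52 of 112 in sir4∆, 62 of 112 in yku70∆ and 74 of 112 with Nup170 in wild type. In 61, 50, 60 and 73 of these the mean of the gap did not pass. The median of the highest probe was 0.663, 0.547, 0.616 and 0.695. A highest of several probes is above the mean by its choice, so these values describe tRNA gaps and were not set against other gaps. In the gap of MLH2, a mismatch repair gene, the highest probe of 6 read 1.60 with Nup170 in wild type, with 1.61 and 1.59 in the 2 hybridisations, and the gap averaged 0.53.

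Cytosolic ribosomal protein genes had the highest promoters of any list. Of 139 such genes, 62 had a single-sided promoter probe and 45 a measured promoter, since filtering for at least 2 probes left the others out. Their promoter median was 0.30 with Nup157, 0.21 in sir4∆, 0.34 in yku70∆ and 0.48 with Nup170 in wild type, beside -0.07, -0.04, -0.07 and -0.08 over all measured promoters. With 1 hybridisation left out it was 0.18 or 0.39, 0.08 or 0.37 and 0.30 or 0.63 for Nup157, sir4∆ and Nup170 in wild type, above 0 each time. Promoters above 0 numbered 36, 39, 44 and 44 of 45, beside 552 of 1290, 529 of 1288, 439 of 1290 and 435 of 1289 of all. Of the 45, 10, 2, 5 and 15 passed 1.5-fold, where 3.72%, 1.09%, 1.63% and 2.64% of all did, against 1 lower promoter with Nup157, that of RPS27A at -0.66. The ORFs of the list had medians of 0.35, 0.42, 0.53 and 0.58. With Nup170 in wild type the promoter was below the own ORF in 26 of 37 genes, much as in 791 of 1152 of all genes. The promoters of the list were higher than all promoters at each distance, and with Nup170 they too were lowest from 100 to 300 bp. With Nup170 in wild type their probes had medians of 0.495 within 100 bp, 0.339 from 100 to 300 bp, 0.561 from 300 to 500 bp and 0.447 from 500 to 1000 bp, where all promoter probes had -0.121, -0.168, -0.093 and -0.027. From 100 to 300 bp and from 500 to 1000 bp the list had 0.137 and 0.322 in sir4∆ and 0.197 and 0.334 in yku70∆, but 0.373 and 0.192 with Nup157, which had no such dip in this list. The list ranged from RPL4B at -0.09 to RPL7A at 1.46 with Nup170 in wild type. RPS19B, which lies beyond another ribosomal protein gene, RPL18B, had 0.94, 0.52, 0.83 and 1.14. RPL8A had 0.51, 0.83, 0.92 and 1.09 with an upstream ORF, GUT1, at 0.64, -0.07, 0.04 and -0.02.

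Most glycolytic and fermentation genes had low promoters in front of high ORFs in the Nup170 libraries. Of 22 genes listed, 11 had a promoter probe and 9 a measured promoter. The promoter median was 0.01 with Nup157, -0.11 in sir4∆, -0.24 in yku70∆ and -0.33 with Nup170 in wild type, while the ORF median was 0.88, 0.59, 0.86 and 0.85. In all 4 libraries the promoter was below the ORF in 8 of 8 genes with both. Among all genes it was below in 702 of 1154, 699 of 1151, 811 of 1154 and 791 of 1152. ENO2, the enolase gene, had -0.01, -0.20, -0.31 and -0.49 at the promoter and 1.70, 1.05, 1.37 and 1.44 in the ORF. TDH3, the main gene of glyceraldehyde-3-phosphate dehydrogenase, was the highest promoter of the list with Nup170 in wild type, at 0.28, 0.16, 0.30 and 0.23, against 1.72, 1.39, 1.63 and 1.70 in its ORF. With Nup157, 5 of the 9 promoters were above 0. PYK2, a pyruvate kinase gene, had an ORF at 0.45, -0.03, -0.11 and -0.15, the lowest of the list in the Nup170 libraries. Hexokinase gene HXK2 was at 0.31 with Nup157 and at -0.50, -0.36 and -0.51 with Nup170.

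**Figure D4:**
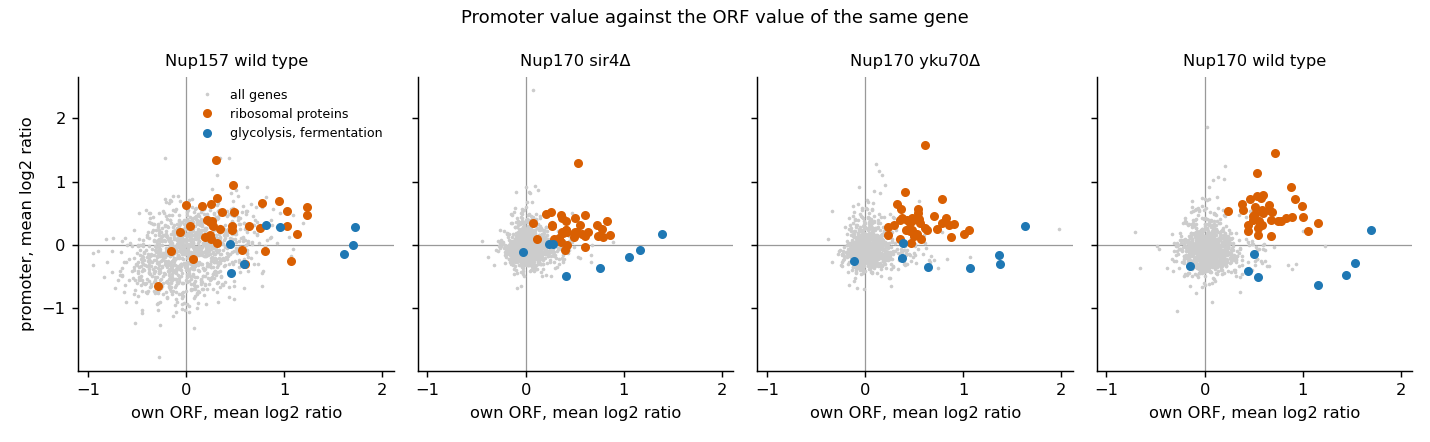
Promoter value against the value of the own ORF, both as mean log2 of ChIP over extract signal, for each gene with both in 4 libraries; grey, all genes; orange, cytosolic ribosomal protein genes; blue, glycolysis and fermentation genes. With Nup170 in wild type the ribosomal protein genes are high on both axes (medians 0.48 and 0.58), and the glycolytic genes are high for the ORF only (median 0.85, promoter -0.33).

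Other lists lay near the background or below it. Genes of the G1 phase of the cell cycle had 14 measured promoters with medians of -0.11, -0.21, -0.16 and -0.21, of which 14 of 14 were below 0 with Nup170 in wild type, as were 66.3% of all, from CLN1, a G1 cyclin gene, at -0.03 to POL1 at -0.91. Hexose and amino acid transporter genes had 13 with medians of -0.01, -0.15, -0.14 and -0.20, and the lowest with Nup170 in wild type was DIP5, a permease gene for acidic amino acids, at -0.46. Respiratory chain genes had 11 with medians of -0.28, -0.08, -0.20 and -0.24. Amino acid biosynthesis genes had 22 with medians of 0.06, -0.05, -0.12 and -0.05, and they spanned LEU1, a leucine synthesis gene, at 0.56 to ARG3 at -1.05 with Nup170 in wild type.

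The libraries were compared with Nup170 in wild type probe by probe and gene by gene, and the 3 comparisons share that library. A gene promoter was called here where the difference was at least 1.5-fold and all 4 pairings of hybridisations lay on the same side of 0. For Nup157 against Nup170 the probe median was -0.057. Single promoter probes past the fold made up 12.1% higher and 13.9% lower, beside 10.8% and 12.1% of all nuclear probes. Of 1288 gene promoters, which are means of at least 2 probes and so not on the scale of single probes, 92 were higher and 87 lower (7.14% and 6.75%). The median is not settled in sign, at 0.007 with normexp background correction, 0.083 with the brightness trend removed and 0.082 with each library divided by its own SD. By distance, the difference was 0.010 within 100 bp of the start, -0.004 from 100 to 300 bp, -0.107 from 500 to 1000 bp and -0.263 beyond 1000 bp. The differences by distance were not recomputed under those settings. The promoters furthest above were ARG3 at 1.37, STR3 at 1.19, VHR2 at 1.15, SCW4, a cell wall protein gene, at 1.04 and APT2 at 1.04, all at or above 0.32 with Nup157 and at or below -0.51 with Nup170. Those furthest below were KXD1 at -1.15, OCA4 at -1.07, RPL11B at -1.03 and RAD3, a helicase gene of transcription factor TFIIH, at -1.01.

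OCA4 stands next to HMR, a silent mating-type locus, with HMRA1 as its upstream ORF. Its 14 promoter probes, 85 to 3770 bp from its start on chromosome 3, averaged -0.76 with Nup157, 0.12 in sir4∆, 0.13 in yku70∆ and 0.31 with Nup170 in wild type. The high values lay at the far end. The probe at 3495 bp (292717 to 292776) read 0.10, 0.77, 1.45 and 1.86, and the probe at 3770 bp (292992 to 293051) read -0.30, 0.41, 0.77 and 1.23. The probe at 3495 bp was near blank in the yku70∆ library. Both probes were highest with Nup170 in wild type and lowest with Nup157. The probe nearest the start read -0.88, -0.37, -0.59 and -0.66.

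Few promoters of the deletion-labelled libraries were past the fold from Nup170 in wild type. For sir4∆ the median difference over probes was 0.038. There 33 promoter probes were higher (0.637%) and 15 lower (0.290%), beside 0.184% and 0.280% of all nuclear probes. Of 1287 gene promoters 2 were higher and 1 lower (0.155% and 0.0777%). With normexp the median turned to -0.037. The higher promoters were RFM1, a gene of a repressor complex for sporulation genes, at 0.65 with pairings of 0.12 to 1.19, and GCD14, a tRNA methyltransferase gene that was named after its value was seen, at 0.64 with pairings of 0.45 to 0.84. RFM1 had 0.18 in sir4∆ against -0.47 in wild type, and GCD14 had 0.40 against -0.24, with 1 of its 2 probes near blank in every library. The lower one was RPS19B at -0.62 with pairings of -1.10 to -0.13. With 1 hybridisation of each library left out, 8 or 9 promoters were higher and 0 or 28 lower, so these counts rest on single hybridisations. For yku70∆ the median was 0.016, with 16 promoter probes higher (0.309%) and 11 lower (0.212%), beside 0.106% and 0.109% of all nuclear probes. Of 1288 gene promoters 0 were higher and 0 lower (0% and 0%). With 1 hybridisation of each library left out, 3 or 5 were higher and 4 or 3 lower. ARG3 was the furthest above at 0.41, with pairings of 0.03 to 0.78, and CMP2, a calcineurin subunit gene, the furthest below at -0.36.

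Ribosomal protein promoters were lower in all 3 libraries than with Nup170 in wild type. The median difference over the 45 promoters was -0.18 with Nup157, -0.27 in sir4∆ and -0.14 in yku70∆, with 34, 43 and 41 below 0, beside -0.05, 0.03 and 0.01 over all measured promoters. Of these, 6, 1 and 0 passed the fold on the low side, beside 87 of 1288 (6.75%), 1 of 1287 (0.0777%) and 0 of 1288 (0%) of all measured promoters. The pairings of hybridisations ranged from -0.40 to 0.05, -0.59 to 0.06 and -0.35 to 0.06, so the sign depends on which hybridisations are paired, and these differences are within the spread between hybridisations. The glycolytic promoters were higher, by 0.34 with Nup157, 0.21 in sir4∆ and 0.15 in yku70∆, with 8, 8 and 9 of 9 above 0 and pairings of 0.29 to 0.39, 0.08 to 0.23 and 0.08 to 0.18. The lower-side SD was 0.505, 0.193 and 0.184 in these libraries and 0.223 with Nup170 in wild type. The differences of both lists were not recomputed with each library divided by its SD, and the part of the spread in them was not tested.

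**Figure D5:**
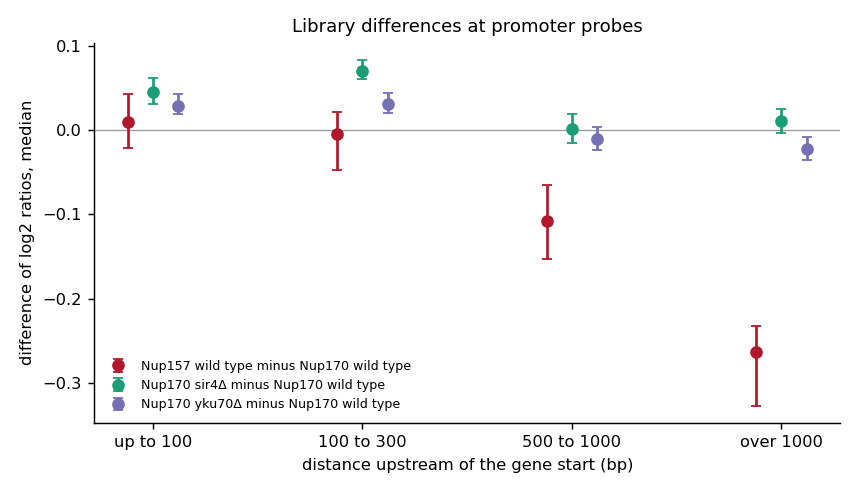
Median difference of log2 ratios at promoter probes for each library minus the Nup170 wild-type library, by distance upstream of the gene start in bp; bars are 95% order-statistic intervals over probes. The Nup157 difference is near 0 within 300 bp and reaches -0.263 beyond 1000 bp, while both deletion-labelled libraries stay within 0.071 of 0.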

How the data were processed

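Chromatin immunoprecipitation on 2-colour Agilent arrays was measured in 4 libraries, with ChIP DNA in Cy5 and whole cell extract DNA in Cy3, per the labels' protocols. The submitters' processing notes name Agilent Feature Extraction, and no version or genome build is given in the sources used here. The deposited intensity columns are the authors' normalized ChIP and extract signals of 2 hybridisations in each library, and the authors' combined log2 ratio was used as an alternative. The deposited mark for excluded probes, a value of 0 or 1 per the file headers, removed probes marked 1. From the intensities log2 of ChIP over extract was taken, centred in each hybridisation on the median over 41480 nuclear probes less those excluded, and averaged over both hybridisations, which served as repeat measurements of 1 library. Gene promoters are means of at least 2 probes, and 1.5-fold (log2 0.585) with both hybridisations, or all 4 pairings, on 1 side of 0 was the call. Differences use only the probes usable in both libraries. A probe was near blank where its extract foreground in either hybridisation was at or below the mean of the 660 blank spots plus 2.6 SDs. No test between groups was made, since each holds 1 library. Named genes were the 10 highest and 10 lowest promoters of each library and the 8 highest and 8 lowest of each difference, with no near-blank probe and all probes on 1 side of 0, plus the extremes of each of the gene lists; where others are named, their values were seen first. The members and the lists were chosen with earlier results of these data known. Gene names and order came from a RefSeq table, which matched 5639 of 5659 genes. Scripts were tested on simulated data and used R 4.3.3 with limma 3.58.1 and Python 3.11.15. Alternatives were each hybridisation left out, normexp with an offset of 50, removal of the trend on brightness, other probe filters and other folds. The planned motif description was not run, because no promoter sequence was used here.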

Additional observations from a re-analysis of the deposited data

How the results depend on the processing

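Of 351 recomputed values for 57 results, 235 stayed within 1 pooled SD (counts within 1.5 times), 109 moved further and 7 were reversed. A value was reversed where its sign changed and both the main value and the move were at least 1 pooled SD. Smaller changes of sign are among the other values. Of the medians and differences, 113 of 119 kept their sign. The causes were not tested. Removing the trend on brightness gave 0.032 for the Nup157 promoter median, 0.082 for its promoter minus ORF, -0.017 for its distance contrast, -0.106 for promoter minus ORF with Nup170 in wild type, 29 lower promoters with Nup157 and 7 with Nup170 in wild type. It gave 0.083 for the median of Nup157 minus Nup170 with 18 lower promoters, 0 higher for sir4∆ minus wild type and 1 for yku70∆ minus wild type. Normexp gave promoter medians of -0.138 in sir4∆, -0.145 in yku70∆ and -0.154 with Nup170 in wild type, and promoter minus ORF of -0.191 with Nup157, -0.230, -0.232 and -0.254 in the same libraries, with a distance contrast of -0.124 in sir4∆. It gave 147, 49, 53 and 72 higher promoters for Nup157, sir4∆, yku70∆ and Nup170 in wild type, 61 lower for Nup157 and 4 for sir4∆. Its differences were 0.0069 for Nup157 with 167 higher and 55 lower, -0.037 for sir4∆ with 1 higher and 6 lower, and 2 higher and 1 lower for yku70∆. Dividing by each library's SD gave 0.082 for Nup157 and 0.148 for sir4∆ minus wild type. The authors' combined ratio gave -0.118 for the sir4∆ distance contrast, 7 lower promoters in sir4∆, 1 higher and 7 lower for sir4∆ minus wild type and 1 higher for yku70∆. Gaps with no gene gave distance contrasts of -0.127, -0.051, -0.089 and -0.110, and probes within 1000 bp a Nup157 difference of -0.011. Near-blank probes left out gave 2 lower promoters in yku70∆ and 1 higher for sir4∆ minus wild type, and all distances to the ends gave 22 higher in sir4∆ and 5 lower for its difference.

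A fold of 2 gave 5, 2, 4 and 9 higher and 13, 0, 0 and 1 lower promoters in the 4 libraries, with 6 higher and 4 lower for Nup157 minus wild type and 0 and 0 for sir4∆. Promoters with at least 1 probe gave 111, 25, 33 and 53 higher and 328, 13, 14 and 45 lower, and differences of 221 and 186, 9 and 3, and 6 and 1. They moved the Nup157 medians of mitochondrial ribosomal protein genes to -0.026 and of respiratory chain genes to -0.00029. A limit of 3 SDs gave 0 higher and 1 lower for Nup157 and 5 lower for Nup170 in wild type. With each hybridisation left out, the ranges were -0.117 to -0.070 and -0.066 to -0.017 for the promoter medians of Nup157 and sir4∆, -0.158 to -0.086 and -0.081 to -0.024 for their promoter minus ORF, and -0.118 to -0.081 and -0.168 to -0.128 for the distance contrasts of sir4∆ and Nup170 in wild type. Higher promoters ranged over 70 to 77 for Nup157, 12 to 29 for sir4∆ and 17 to 67 for Nup170 in wild type, and lower ones over 3 to 8 for sir4∆, 3 to 10 for yku70∆ and 8 to 27 for Nup170 in wild type. Differences ranged over -0.058 to -0.025 with 140 to 148 lower for Nup157, 0.017 to 0.074 with 8 to 9 higher and 0 to 28 lower for sir4∆, and 3 to 5 higher and 3 to 4 lower for yku70∆. Ribosomal protein medians ranged over 0.180 to 0.387, 0.084 to 0.369 and 0.301 to 0.634 for Nup157, sir4∆ and Nup170 in wild type. Mitochondrial ribosomal protein medians ranged over -0.224 to -0.202 for Nup157, -0.186 to 0.012 for yku70∆ and -0.292 to -0.033 for Nup170 in wild type. Nup157 medians ranged over 0.026 to 0.219 for glycolysis, -0.227 to -0.129 for the respiratory chain and -0.242 to -0.163 for G1 genes. No paired analysis was possible because each group holds 1 library. The planned share of promoters with each motif was not run. Signal over blank limits the few near-blank probes, and 1 library in each group limits every comparison.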

Other observations

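The remaining gene lists are given by their promoter medians, beside -0.07, -0.04, -0.07 and -0.08 over all measured promoters, with values in the order Nup157, sir4∆, yku70∆ and Nup170 in wild type. Proteasome genes had medians of -0.34, -0.05, -0.04 and -0.03 over 6 promoters, and 6 of 6 were below 0 with Nup157. Chaperone genes had -0.33, -0.01, 0.01 and -0.00 over 11, and nuclear pore genes had -0.34, -0.08, -0.12 and -0.10 over 10. Haploid and mating-type specific genes, of both a and alpha cells, had -0.33, -0.05, -0.09 and -0.04 over 10. Of these promoters, 4 passed the fold on the low side with Nup157. Beside these, 133 of 1290 promoters were lower with Nup157 in all. Within the nuclear pore list, NUP120, a scaffold gene, was highest with Nup170 in wild type at 0.41 and NUP145 lowest at -0.37.

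Mitochondrial ribosomal protein genes had -0.30, -0.02, -0.11 and -0.18 over 10 promoters, while cytosolic ones were high. Ribosome biogenesis genes had -0.19, 0.04, -0.05 and -0.06 over 18, and subunits of RNA polymerases I and III had -0.12, 0.11, 0.10 and 0.07 over 6. Translation factor genes had 0.18, 0.03, -0.06 and -0.02 over 9, with TEF1 highest. Meiosis and sporulation genes had -0.13, 0.03, 0.05 and 0.06 over 12, phosphate and iron regulated genes 0.02, -0.07, -0.15 and -0.19 over 9, and inducible genes known from the nuclear periphery -0.12, -0.07, -0.12 and -0.06 over 5. Silencing and telomere genes had -0.08, 0.04, -0.19 and -0.23 over 2. The single measured promoters of the aminoacyl-tRNA synthetase and histone lists, YDR341C and CSE4, had -0.45 and -0.15 with Nup170 in wild type.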
